A study of Mus musculus with 9 samples.

Results

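The small leucine-rich proteoglycans (SLRPs) were followed across 9 RNA-Seq libraries of mouse iris. Their 10 members here, chosen by gene symbol, were *Dcn*, *Bgn*, *Aspn*, *Lum*, *Kera*, *Fmod*, *Prelp*, *Omd*, *Ogn* and *Optc*. All 10 were listed among the 18349 genes of the count files, and 9 of them were among the 15010 genes expressed highly enough to be tested. *Kera*, the member left out, had 6 counts in all 9 libraries together.

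SLRPs are secreted matrix proteins with a core of leucine-rich repeats, most of which carry chondroitin, dermatan or keratan sulfate chains. They bind collagen fibrils and set their diameter and spacing, which gives the cornea its transparency and the sclera and tendon their strength. Several also bind growth factors and cell receptors. Decorin (*Dcn*) holds TGF-β and antagonizes EGFR and MET, and biglycan (*Bgn*) released from damaged matrix signals through TLR2 and TLR4. Class I holds decorin, biglycan and asporin (*Aspn*), class II lumican (*Lum*), keratocan (*Kera*), fibromodulin (*Fmod*), *Prelp* and osteomodulin (*Omd*), and class III osteoglycin (*Ogn*) and opticin (*Optc*).

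Each library pooled 3 irises of mice of the same genotype on a C57BL/6J background, and each group had 3 libraries. The Sham VEGFR3fl/fl group had PBS on the cornea, and the injured VEGFR3fl/fl and injured VEGFR3iLECko groups had a filter paper there for 60 seconds that held sodium hydroxide (1 M, 0.5 μL), all at 6 weeks of age. The VEGFR3iLECko mice carried floxed *VEGFR3* and *Prox1*-CreERT2, in which the *Prox1* promoter drives a Cre that tamoxifen activates in lymphatic endothelial cells (LECs). The VEGFR3fl/fl mice were littermates with the floxed allele and no Cre, given as WT in the genotype tag. Mice of both genotypes received tamoxifen at 80 mg/kg on days 13 to 17 after the procedure, and irises were collected at 10 weeks. For VEGFR3iLECko replicates 2 and 3 the genotype tag names another VEGFR number, so their titles were followed. *Flt4*, the gene for VEGFR3, was not lower in the libraries labelled VEGFR3iLECko, with 478, 370 and 476 counts against 277, 353 and 400 in injured VEGFR3fl/fl libraries. RNA of whole irises cannot show a deletion restricted to LECs, so VEGFR3iLECko is used here as a label.

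The libraries held 16617187 to 18306359 counts. Injured VEGFR3fl/fl replicate 1 stood apart, and SLRP transcripts were part of what set it apart. They took 1.44% of its counts, against 0.559% and 0.813% in the other injured VEGFR3fl/fl libraries, 0.441% to 0.449% in Sham and 0.522% to 0.671% in injured VEGFR3iLECko libraries. CPM are the counts scaled to library size by TMM. The 6 tendon and sclera markers summed to 484 CPM in injured VEGFR3fl/fl replicate 1. They summed to 74.1 and 64.8 CPM in replicates 2 and 3, and tenomodulin (*Tnmd*) was at 225, 7.14 and 14.2 CPM. Of these 6 markers, 5 were highest of the group in replicate 1, whereas *Scx* was lowest there. Of the 8 corneal markers 3 were highest there, *Aldh3a1* with 117, 1.93 and 10.2 CPM, whereas the epithelial keratins *Krt5*, *Krt12*, *Krt14* and *Krt15* were at 0 to 0.243 CPM, below both other libraries. *Kera*, the keratocyte member of the family, had 3, 0 and 1 counts. Summed Y-linked transcripts were at 51.1 to 167 CPM in Sham and at 151 and 136 CPM in injured VEGFR3fl/fl replicates 1 and 2. They were at 0.804 CPM in replicate 3 and at 0.736 to 1.11 CPM in injured VEGFR3iLECko libraries, so the sexes were not balanced between the groups. The part of other tissue in the results was not tested, nor was that of sex beyond a fit with Y-linked expression as a covariate. Results are given with and without replicate 1. *Dct* of pigment cells was at 10416 to 11130 CPM in Sham. Of 6 markers of nonpigmented ciliary epithelium, *Col9a1*, *Col9a2*, *Col9a3* and *Wfdc1* were at 36.9 to 106 CPM in Sham, while *Atp6v1c2* and *Cacna1e* reached at most 1.64 and 2 CPM in any library.

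Of the 10 genes, 9 lie in 3 clusters with no other protein-coding gene between neighbouring members (GRCm38, the build named mm10 in the submitters' processing notes). *Optc* (chr1:133897193-133909688, minus strand) lies 615 bases from *Prelp* (chr1:133910304-133930102, minus strand), and *Fmod* follows at chr1:134037254-134048280. On chromosome 10, *Dcn* (chr10:97479500-97518163), *Lum* (chr10:97565501-97572703) and *Kera* (chr10:97606962-97613688) lie on the plus strand. On chromosome 13, *Aspn* (chr13:49544443-49567565), *Omd* (chr13:49582462-49592612) and *Ogn* (chr13:49608015-49624501) do too. *Bgn* lies by itself on the X chromosome at chrX:73483601-73495936.

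The members whose levels across the 9 libraries were most alike were *Bgn* and *Aspn*, which are not neighbours. The 250 bases before their RefSeq start sites are shown because 2 genes that rose together had upstream sequences of opposite base composition. Both are on the plus strand of GRCm38.p6, *Bgn* at chrX:73483351-73483600 and *Aspn* at chr13:49544193-49544442, and capitals mark the letters TATAAA on either strand.
Bgn: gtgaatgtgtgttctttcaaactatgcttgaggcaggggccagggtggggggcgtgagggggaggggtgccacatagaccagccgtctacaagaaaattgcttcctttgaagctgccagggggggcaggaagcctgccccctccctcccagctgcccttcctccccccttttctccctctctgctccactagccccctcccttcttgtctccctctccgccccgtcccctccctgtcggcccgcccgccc
Aspn: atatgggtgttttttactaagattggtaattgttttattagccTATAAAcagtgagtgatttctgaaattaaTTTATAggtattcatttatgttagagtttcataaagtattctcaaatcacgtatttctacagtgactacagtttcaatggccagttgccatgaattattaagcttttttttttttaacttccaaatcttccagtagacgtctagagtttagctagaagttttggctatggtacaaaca
The *Bgn* window was 64.4% G and C and the *Aspn* window 30.0%, around a median of 52% over 27025 promoters. TATAAA matched at 2 places in the *Aspn* window, which begin 207 and 178 bases before the start, and in none of *Bgn*. Over all promoters 12.97% held it, and so did 2 of the 8 members with an entry (*Aspn* and *Ogn*). *Dcn* and *Lum* had no entry. None of those 8 held the AP-1 letters TGANTCA or the E-box CACGTG, which 6.87% and 6.05% of all promoters held, and 3 of 8 (*Fmod*, *Prelp* and *Optc*) held the SMAD letters CAGAC, against 42.1%. The windows of *Optc*, *Prelp* and *Kera* overlapped the span of their own gene, and of the other 5 windows 1 (*Fmod*) held CAGAC and 2 held TATAAA.

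Alkali injury changed the family unevenly. In injured against Sham VEGFR3fl/fl irises, 4 of 9 tested members rose (*Bgn*, *Aspn*, *Fmod* and *Lum*), 1 fell (*Optc*) and 4 did not pass the test (*Dcn*, *Prelp*, *Ogn* and *Omd*), where a change needed an adjusted p under 0.05 and more than 1.5-fold. Of all 15010 genes tested, 22.1% rose and 17.5% fell by the same rule. The median log2 fold change was 1.66 over the 9 members and 0.010 over all genes. Without replicate 1, the median of the members was 0.59, *Lum* no longer passed, *Dcn* was called lower, and 3 members rose and 2 fell, beside 21.5% and 17.6% of all genes. Without replicate 2, the lowest of its group for 8 of 9 members, *Prelp*, *Ogn* and *Omd* passed as well. That made 7 higher and 1 lower, beside 21.7% and 17.5% of all genes. In whole tissue, fewer cells of a type and less RNA per cell cannot be told apart. The libraries of the 2 groups did not overlap for 4 members that were higher and 1 that was lower, as for 33.9% and 32.4% of all genes (66.3% in either direction). DESeq2 called 6 members, *Prelp* as well, and limma-voom called the same 5 as edgeR, beside 39.6% and 39.0% of all genes in either direction. Adjusted p-values come from the quasi-likelihood test of edgeR, corrected by Benjamini-Hochberg over the 15010 genes.

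**Figure D1:**
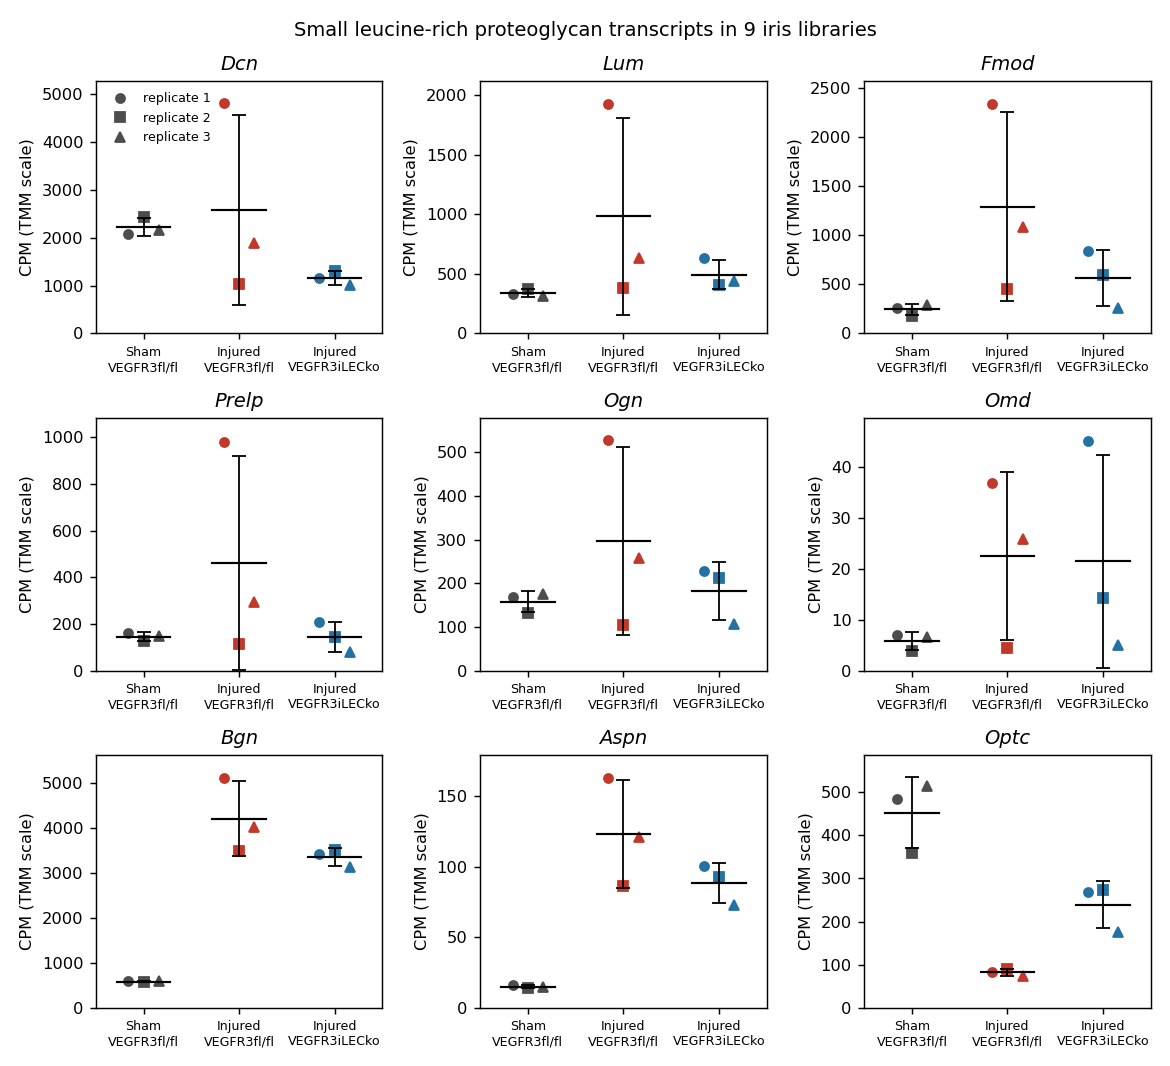
Normalized expression (CPM, linear axes from 0) of the 9 tested SLRP genes in each library, by group, with replicates 1 to 3 as circles, squares and triangles and the group mean and SD (n = 3) as lines and bars. Bgn and Aspn were higher in all 6 injured libraries than in Sham, Optc was lower in all 6, and injured VEGFR3fl/fl replicate 1 was the highest of its group in every panel but that of Optc.

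Of class I, biglycan carried the largest gain in counts. *Bgn* (NCBI Gene ID 12111) was at 584, 567 and 586 CPM in Sham, at 5116, 3478 and 4016 CPM in injured VEGFR3fl/fl and at 3416, 3511 and 3122 CPM in injured VEGFR3iLECko replicates 1 to 3. The 6 injured libraries were all above the 3 Sham libraries, which had a coefficient of variation of 1.79%. The log2 fold change after injury was 2.86 (SE 0.15, adjusted p = 6.4e-07 by edgeR), a 7.26-fold rise, and 2.69 without replicate 1. Between the injured groups it was -0.33 (SE 0.14, adjusted p = 0.190 by edgeR), and their libraries overlapped.

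Asporin, a relative of decorin that binds collagen and TGF-β and carries no glycosaminoglycan chain, rose alongside from a far lower level. *Aspn* (66695) was at 15.9, 13.9 and 14.6 CPM in Sham, at 163, 86.1 and 121 CPM in injured VEGFR3fl/fl and at 100.2, 92.9 and 72.9 CPM in injured VEGFR3iLECko libraries. Its log2 fold change after injury was 3.05 (SE 0.23, adjusted p = 5.23e-06 by edgeR), an 8.31-fold rise. The injured groups overlapped, with a difference of -0.47 (SE 0.21, adjusted p = 0.199 by edgeR). With every single library left out in turn, *Bgn* and *Aspn* were called higher than Sham in both injured groups.

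Decorin, the SLRP with the most counts in Sham iris, did not share this rise. *Dcn* (13179) was at 2085, 2438 and 2168 CPM in Sham, at 4816, 1026 and 1898 CPM in injured VEGFR3fl/fl and at 1162, 1309 and 1009 CPM in injured VEGFR3iLECko libraries. Replicate 1 of injured VEGFR3fl/fl lay above every Sham library, while replicates 2 and 3 and all injured VEGFR3iLECko libraries lay below. Its log2 fold change after injury was 0.21 (SE 0.44, adjusted p = 0.703 by edgeR) and turned to -0.61 (SE 0.23, adjusted p = 0.0470 by edgeR) without replicate 1. For injured VEGFR3iLECko against Sham it was -0.94 (SE 0.45, adjusted p = 0.103 by edgeR), which passed at -0.94 (SE 0.20, adjusted p = 0.00379) once replicate 1 was left out of the shared fit.

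The class II members, several of which carry keratan sulfate, regulate the growth of collagen fibrils. Fibromodulin rose the most of those that passed. *Fmod* (14264) was at 260, 180 and 295 CPM in Sham, at 2343, 451 and 1084 CPM in injured VEGFR3fl/fl and at 837, 600 and 263 CPM in injured VEGFR3iLECko libraries. Every injured VEGFR3fl/fl library lay above Sham, and replicate 3 of injured VEGFR3iLECko lay among the Sham libraries. The log2 fold change after injury was 2.40 (SE 0.59, adjusted p = 0.00647 by edgeR) and 1.65 (adjusted p = 0.0157) without replicate 1.

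Lumican, which the corneal stroma needs for its transparency, had a smaller change. *Lum* (17022) was at 332, 373 and 310 CPM in Sham, at 1928, 382 and 635 CPM in injured VEGFR3fl/fl and at 630, 410 and 439 CPM in injured VEGFR3iLECko libraries. All 6 injured libraries were above all 3 Sham libraries, injured VEGFR3fl/fl replicate 2 by the least. The log2 fold change after injury was 1.54 (SE 0.50, adjusted p = 0.0244 by edgeR) and 0.59 (SE 0.23, adjusted p = 0.0571) without replicate 1, and the call was also lost without Sham replicate 1 (adjusted p = 0.0694), 2 (0.0559) or 3 (0.0748). For injured VEGFR3iLECko against Sham it was 0.54 (SE 0.49, adjusted p = 0.377 by edgeR).

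*Prelp* (116847), which binds collagen and heparan sulfate at basement membranes, did not pass in edgeR's test. It was at 163, 125 and 149 CPM in Sham, at 981, 112 and 293 CPM in injured VEGFR3fl/fl and at 206, 145 and 80.9 CPM in injured VEGFR3iLECko libraries. Its log2 fold change after injury was 1.66 (SE 0.66, adjusted p = 0.0536 by edgeR). It was 0.47 (adjusted p = 0.364 by edgeR) without replicate 1, which held most of the *Prelp* counts of the injured VEGFR3fl/fl group. With DESeq2 it passed at 1.66 (adjusted p = 0.0420), and limma-voom gave 1.14 (adjusted p = 0.154). Osteomodulin, a protein of bone matrix, was the lowest of the tested members. *Omd* (27047) was at 7.03, 3.78 and 6.59 CPM in Sham, at 37.0, 4.51 and 25.9 CPM in injured VEGFR3fl/fl and at 45.1, 14.4 and 5.06 CPM in injured VEGFR3iLECko libraries. Its log2 fold change after injury was 1.95 (SE 0.85, adjusted p = 0.0753 by edgeR). Of 8 tested bone and cartilage markers 5 were higher after injury, and 6 without replicate 1, beside 22.1% and 21.5% of all genes. The list summed to 28.3 to 35.2 CPM in Sham. It summed to 315, 85.7 and 203 CPM in injured VEGFR3fl/fl and to 159, 81.0 and 76.8 CPM in injured VEGFR3iLECko libraries, the order of the *Omd* levels within each injured group. Bone sialoprotein (*Ibsp*) was at 0.182, 0.761 and 83.5 CPM and at 45.4, 5.38 and 2.88 CPM in those groups and had 0 counts in Sham. In injured VEGFR3fl/fl replicate 1 most of the sum was *Comp* of cartilage and tendon (262 CPM), and osteocalcin (*Bglap*) was at 0.403 CPM or less in every library. Their part in the *Omd* levels was not tested. *Prelp* also passed without injured VEGFR3fl/fl replicate 3, and *Omd* without injured VEGFR3iLECko replicate 1 or 3.

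Keratocan, the keratan sulfate proteoglycan that marks corneal keratocytes, was hardly detected. *Kera* (16545) had 0 counts in 5 of 9 libraries and no more than 3 counts in any, where a count of 0 allows up to 3 counts, or 0.166 to 0.182 CPM. The limit covers counting error only.

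Of class III, osteoglycin did not pass in any comparison and opticin changed in all. *Ogn* (18295) was at 168, 132 and 175 CPM in Sham, at 528, 103 and 258 CPM in injured VEGFR3fl/fl and at 228, 212 and 107 CPM in injured VEGFR3iLECko libraries. Its log2 fold change after injury was 0.91 (SE 0.50, adjusted p = 0.146 by edgeR) and 0.19 without replicate 1. The injured groups ranged on both sides of Sham.

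Opticin, a glycoprotein of the vitreous that the ciliary epithelium is known to secrete, was the only member that fell with all 9 libraries. *Optc* (269120) was at 484, 360 and 515 CPM in Sham, at 81.8, 90.3 and 74.2 CPM in injured VEGFR3fl/fl and at 268, 273 and 176 CPM in injured VEGFR3iLECko libraries. The 3 groups did not overlap, with injured VEGFR3iLECko between the others. The log2 fold change after injury was -2.46 (SE 0.20, adjusted p = 7.87e-06 by edgeR), and -0.92 (SE 0.19, adjusted p = 0.00265 by edgeR) for injured VEGFR3iLECko against Sham. Replicate 1, the highest library of its group for the other tested members, lay between replicates 2 and 3 here.

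**Figure D2:**
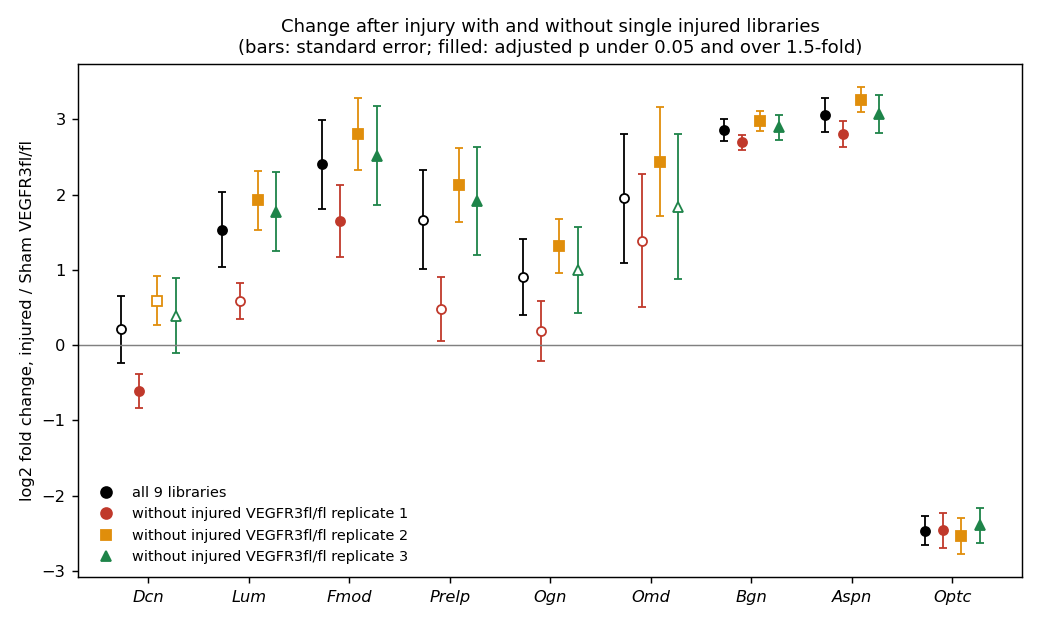
Log2 fold changes of the 9 tested SLRP genes in injured against Sham VEGFR3fl/fl irises, with all 9 libraries (black) and with injured VEGFR3fl/fl replicate 1 (red), 2 (orange) or 3 (green) left out; bars are standard errors and filled symbols passed the test. Bgn, Aspn, Fmod and Optc kept their call throughout, while Dcn went from 0.21 to -0.61 without replicate 1.

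The injured groups were compared to see which members differed with the *VEGFR3* deletion named in the labels. *Optc* was the only member called, and it was 2.91-fold higher in injured VEGFR3iLECko irises (log2 1.54, SE 0.19, adjusted p = 0.0214 by edgeR). Over all genes tested, 0.573% were called higher and 0.466% lower. The groups did not overlap for *Optc*, as for 12.4% of all genes in that direction, 14.3% in the other and 26.7% in either. DESeq2 and limma-voom also called *Optc* only, beside 4.17% and 1.47% of all genes in either direction. The call was lost without Sham replicate 3 (adjusted p = 0.0510), injured VEGFR3iLECko replicate 1 (0.0607) or replicate 2 (0.103), with only the 6 injured libraries fitted (0.0943) and with Y-linked expression as a covariate (0.165), while its log2 fold change stayed between 1.44 and 1.72 over the 22 alternatives. Injured VEGFR3fl/fl replicates 1 and 2, which had Y-linked transcripts, were at 81.8 and 90.3 CPM of *Optc*. Replicate 3, which lacked them like the VEGFR3iLECko libraries, was at 74.2 CPM. Beyond the fit with that covariate, the part of sex in the *Optc* difference was not tested.

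The other 8 tested members had log2 fold changes below 0 between the injured groups, and 0 passed. Of them 4 (*Dcn*, *Prelp*, *Bgn* and *Aspn*) had an unadjusted p under 0.05 in edgeR's test, as did 24.5% of all genes. The lowest log2 fold changes, whether or not the unadjusted p was under 0.05, were -1.68 for *Prelp* (SE 0.66, adjusted p = 0.168 by edgeR), -1.19 for *Fmod* (SE 0.57, adjusted p = 0.228 by edgeR), -1.15 for *Dcn* (SE 0.45, adjusted p = 0.167 by edgeR) and -0.99 for *Lum* (SE 0.49, adjusted p = 0.242 by edgeR). Without replicate 1 they were -0.49, -0.43, -0.33 and -0.040. *Ogn* and *Omd*, at -0.70 and -0.063, turned to 0.018 and 0.50, so these differences rested largely on that library.

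Against Sham, injured VEGFR3iLECko irises had 2 of 9 members higher (*Bgn* and *Aspn*) and 1 lower (*Optc*), where 19.7% of all genes were called higher and 15.0% lower. The libraries did not overlap for 3 higher (*Lum* as well) and 2 lower members (*Dcn* as well), as for 33.3% and 33.2% of all genes (66.5% in either direction). The log2 fold changes were 2.53 for *Bgn* (SE 0.15, adjusted p = 1.59e-06 by edgeR) and 2.58 for *Aspn* (SE 0.23, adjusted p = 1.83e-05 by edgeR). DESeq2 and limma-voom called the same 3 members, beside 34.8% and 34.7% of all genes in either direction. Both injured groups were set against the same Sham libraries. Without injured VEGFR3fl/fl replicate 1 in the shared fit, *Fmod* (1.21, SE 0.44, adjusted p = 0.0399 by edgeR) and *Dcn* also passed. That made 3 higher and 2 lower, beside 20.2% and 15.6% of all genes. Without replicate 2 there were 4 higher and 2 lower, beside 19.8% and 15.3%.

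**Figure D3:**
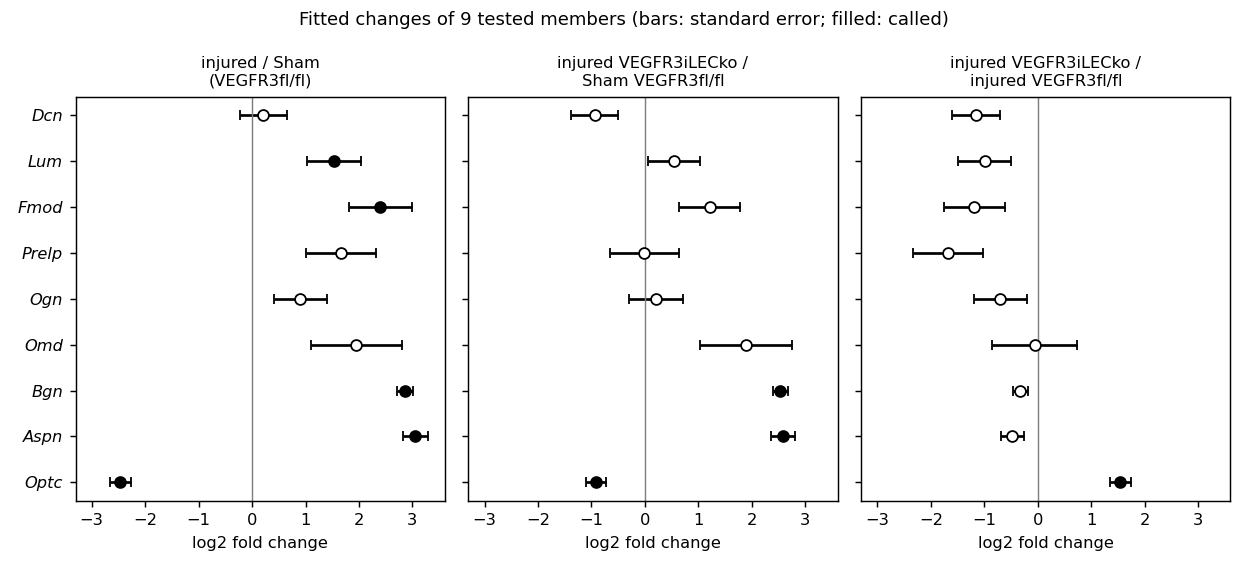
Log2 fold changes (horizontal axes) of the 9 tested SLRP genes in the 3 comparisons; bars are standard errors from edgeR and filled points passed the test. Optc passed in all 3 panels, Bgn and Aspn in both comparisons with Sham, and the remaining points between the injured groups lay below 0 without passing.

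In the balance of class I, biglycan gained on decorin in every injured library. Within a library, the ratio of *Bgn* to *Dcn* counts was 0.280, 0.233 and 0.270 in Sham, 1.06, 3.39 and 2.12 in injured VEGFR3fl/fl and 2.94, 2.68 and 3.09 in injured VEGFR3iLECko libraries. Each injured library lay above each Sham library. These are ratios of counts, and the longest *Bgn* transcript (2419 bases) is longer than that of *Dcn* (1758 bases). Per length, *Dcn* stayed ahead of *Bgn* in injured VEGFR3fl/fl replicate 1, with 39.1% against 30.2% of the family, and *Bgn* was ahead in the other 5 injured libraries. The geometric mean ratio was 7.56-fold and 11.1-fold above Sham in the respective injured groups. *Fmod*, *Lum*, *Prelp*, *Ogn*, *Aspn* and *Omd* counts over *Dcn* counts were also higher in every injured VEGFR3fl/fl and VEGFR3iLECko library than in Sham. *Dcn* counts over those of *Col1a1*, the main chain of type I collagen, fell from 6.72, 6.48 and 6.67 in Sham to 0.888, 0.231 and 0.337 in injured VEGFR3fl/fl and 0.198, 0.352 and 0.198 in injured VEGFR3iLECko libraries. *Bgn* over *Col1a1* was 1.51 to 1.88 in Sham and 0.583 to 0.944 in the 6 injured libraries, so *Bgn* rose by less than *Col1a1*. Each ratio that separated the groups had p = 0.1 in a two-sided exact permutation test, the smallest p that 3 libraries against 3 allow, and 0.15 after adjustment over 27 tests.

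**Figure D4:**
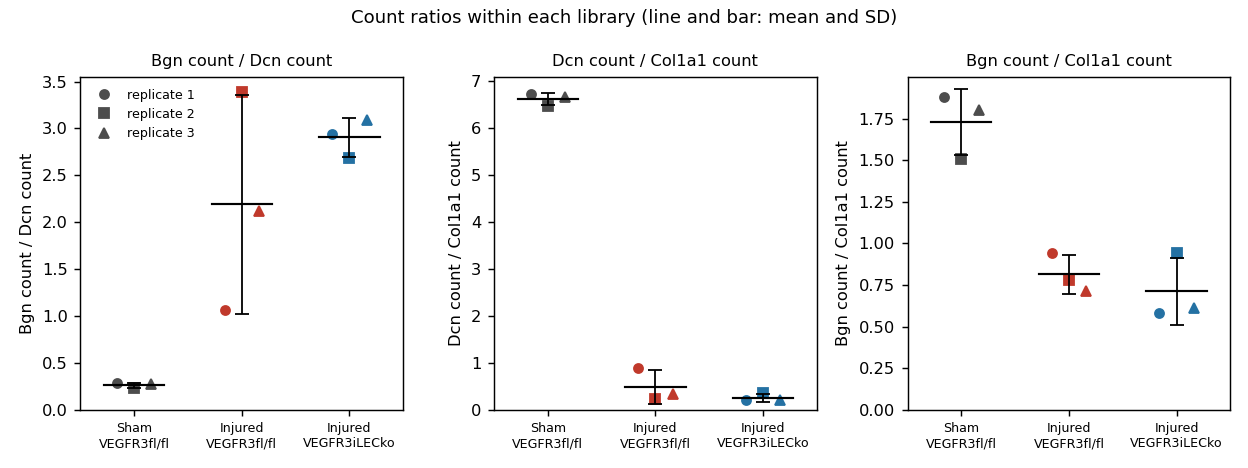
Ratios of counts within each library (linear axes from 0) for Bgn over Dcn, Dcn over Col1a1 and Bgn over Col1a1, by group, with replicates as circles, squares and triangles and the mean and SD (n = 3) as lines and bars. The Bgn to Dcn ratio of counts, which is not scaled to length, was 0.233 to 0.280 in Sham and 1.06 to 3.39 in the 6 injured libraries, and the Dcn to Col1a1 ratio was 6.48 to 6.72 in Sham and below 1 after injury.

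Levels of different members were compared per length, as CPM per kb of the longest coding transcript. In Sham, *Dcn* stood first with 1269 CPM per kb, 61.1% of the family, followed by *Optc* (240.2) and *Bgn* (239), whose libraries overlapped, and then *Lum* (138), *Fmod* (78.5), *Ogn* (61.6), *Prelp* (40.3), *Aspn* (6.36) and *Omd* (2.58). Of these neighbours, *Fmod* and *Ogn* also overlapped. In injured VEGFR3fl/fl libraries *Bgn* (1738) and *Dcn* (1468) overlapped at the top, *Fmod* (414) and *Lum* (401) came next, and *Optc* (43.6) ranked 8. All neighbours from *Bgn* down to *Optc* overlapped there. In injured VEGFR3iLECko libraries *Bgn* (1385) held 51.0% of the family and stood above *Dcn* (660), with no overlap, and *Optc* (127) ranked 5, below *Lum* (201) and *Fmod* (182). *Fmod* overlapped both *Lum* and *Optc* there. By the median instead of the longest transcript length, *Fmod* ranked 3 and *Lum* 4 in that group, and *Optc* ranked 7 in injured VEGFR3fl/fl. *Dcn* made up 58.6% to 65.5% of the family in Sham libraries, 23.5% to 39.1% in injured VEGFR3fl/fl and 22.4% to 25.9% in injured VEGFR3iLECko libraries.

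**Figure D5:**
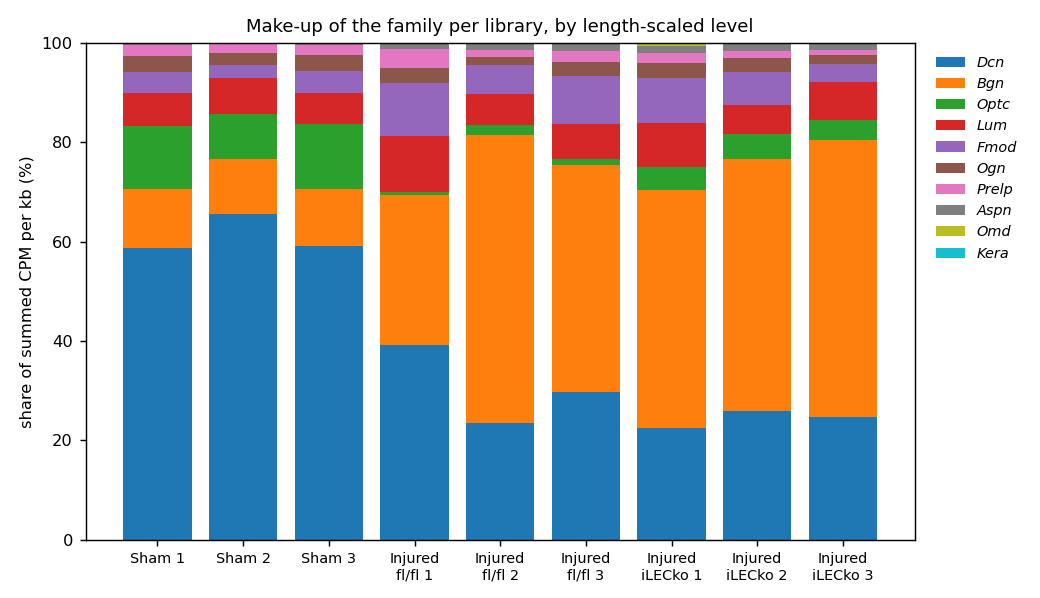
Share of each member in the summed length-scaled level (CPM per kb, in %) of the family in each library, stacked to 100%. Dcn fills 58.6% to 65.5% of the Sham bars, Bgn fills 30.2% to 58.0% of the injured bars against 11.1% to 11.9% in Sham, and Optc shrinks from 9.02% to 13.1% in Sham to 0.620% to 1.93% in injured VEGFR3fl/fl.

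Neighbours within a cluster ranged from alike to unlike, though the differences between genes were not tested. *Optc* and *Prelp*, 615 bases apart, had log2 fold changes after injury of -2.46 and 1.66, and *Aspn* had 3.05 where *Ogn* of the same cluster had 0.91, while *Fmod* and *Prelp* had 2.40 and 1.66. Likeness of profile was measured as the root mean square difference of log2 CPM, centred per gene, over the 9 libraries. Among the members *Bgn* and *Aspn* were the closest pair (0.14), then *Ogn* and *Prelp* (0.39), and *Optc* and *Aspn* were the farthest (2.27). Of pairs in one cluster, *Fmod* and *Prelp* differed by 0.57, *Dcn* and *Lum* by 0.68, and *Optc* and *Prelp* by 1.73. Outside the family, the closest genes were *Cdo1* (0.13) and *Isg20* (0.13) to *Bgn*, *Pdgfrl* (0.16) to *Lum*, *Smoc1* (0.30) to *Fmod*, *Nos1ap* (0.21) to *Optc* and *Kazald1* (0.24) to *Dcn*. These are descriptions over libraries that include 3 groups.

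Most of the collagen chains that SLRPs bind rose. Of 14 fibril-associated chains, 12 rose and 1 fell after injury, beside 22.1% and 17.5% of all genes. Their median log2 fold change was 2.48. *Col1a1* changed by 3.94 (SE 0.20), *Col3a1* by 3.47 (SE 0.26), *Col14a1* by 3.61 (SE 0.19) and *Col12a1* by 3.85 (SE 0.28), and *Col2a1* fell by 1.90. Between the injured groups 0 of 14 were called by edgeR, DESeq2 or limma-voom. Of the 14, 2 had an unadjusted p under 0.05 there, beside 24.5% of all genes. The numbers called after injury were the same without replicate 1. Of 7 tested leucine-rich repeat proteins outside the 10, 4 rose (*Podnl1*, *Tsku*, *Chad* and *Ecm2*), beside 22.1% of all genes. *Chad* was at 77.3, 1.40 and 3.39 CPM in the injured VEGFR3fl/fl libraries, *Ecm2* was at 62.3 CPM in replicate 1 and 12.4 CPM in replicate 2, and without replicate 1 neither passed, leaving *Podnl1* and *Tsku* higher and *Chadl* lower. Between the injured groups 0 of 7 were called by edgeR and 1 by DESeq2, which called 4.17% of all genes. Of the 7, 2 had an unadjusted p under 0.05, beside 24.5% of all genes.

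Enzymes that build the sugar chains changed in part. Of 22 genes for chondroitin and dermatan sulfate, 9 rose and 1 fell after injury, among them *Csgalnact1* (2.54, SE 0.38), which starts the chondroitin chain, *Chsy1* (1.17, SE 0.13), which extends it, and the sulfotransferases *Chst7* (2.15, SE 0.17) and *Chst15* (1.62, SE 0.15). The dermatan epimerase gene *Dse* had a log2 fold change of -0.42, under the fold threshold. Of 7 keratan sulfate genes 3 rose, *B3gnt7* (3.45, SE 0.41), *Chst1* (1.32, SE 0.25) and *B4galt1* (0.89, SE 0.082). Of all genes, 22.1% rose and 17.5% fell. The medians of these lists were 0.46 and 0.35. Without replicate 1, 8 of 22 and 3 of 7 rose and 1 of each list fell, beside 21.5% and 17.6% of all genes. Between the injured groups edgeR called 0 genes of either list, while 6 of 22 and 1 of 7 had an unadjusted p under 0.05, beside 24.5% of all genes. DESeq2 called 2 and 1 of them, and limma-voom 1 and 0, beside 4.17% and 1.47% of all genes.

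Genes for SLRP processing and cleavage, all for proteases but *Pcolce*, rose for the most part. After injury 11 of 13 were higher and 2 lower, beside 22.1% and 17.5% of all genes, with a median log2 fold change of 3.13. They included *Bmp1* (2.22, SE 0.22), which removes the propeptide of biglycan, *Mmp2* (3.90, SE 0.17), *Mmp14* (1.47, SE 0.12) and *Mmp13* (8.92, SE 0.96), a collagenase that also cuts fibromodulin and went from 0.664 to 0.903 CPM in Sham to 111 to 527 CPM. *Adamts1* and *Adamts5* fell. *Pcolce* and *Adamts1* no longer passed without replicate 1. Between the injured groups 0 of 13 were called by edgeR and 1 by DESeq2, which called 4.17% of all genes. Of the 13, 3 had an unadjusted p under 0.05, beside 24.5% of all genes.

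Of 17 ligands and receptors of SLRPs, 13 rose and 3 fell after injury, beside 22.1% and 17.5% of all genes. Their median was 1.34, and the same numbers were called without replicate 1. The receptors of soluble biglycan were among those that rose, with *Tlr2* at 2.48 (SE 0.13), *Tlr4* at 0.79 (SE 0.14), the co-receptor *Cd14* at 3.03 (SE 0.18), *P2rx4* at 2.23 (SE 0.091) and *P2rx7* at 1.51 (SE 0.12). Of the decorin ligands, *Tgfb1* rose by 2.28 (SE 0.13), *Tgfb2* fell by 0.74, and the receptor *Met* fell by 2.15. *Ccn4*, which binds decorin and biglycan, rose by 4.35 (SE 0.34). *Cd14* was the only one that edgeR called between the injured groups, higher in injured VEGFR3iLECko by 0.86 (SE 0.16, adjusted p = 0.0407 by edgeR), and 0 of 17 were called there without replicate 1. With all libraries 6 of 17 had an unadjusted p under 0.05 and DESeq2 called 2, beside 24.5% and 4.17% of all genes.

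Markers of the cells in the iris moved in the same comparisons. Of all genes, 22.1% rose and 17.5% fell after injury, and 0.573% were higher and 0.466% lower in injured VEGFR3iLECko than in injured VEGFR3fl/fl. Macrophage markers (7 of 7 higher after injury) summed to 340 to 357 CPM in Sham, 3077 to 3454 CPM in injured VEGFR3fl/fl and 1905 to 2195 CPM in injured VEGFR3iLECko libraries, and 4 of 7 were lower in injured VEGFR3iLECko. Activated fibroblast markers (6 of 7 higher, *Acta2* lower) summed to 3945 to 5046 CPM, 5503 to 8812 CPM and 8184 to 9548 CPM. Most of the Sham sum was *Acta2*, with group means of 3896, 1236 and 1601 CPM, so the sum understates the rise of the others. *Fn1* had means of 118, 3728 and 4159 CPM and *Postn* of 261, 2090 and 2718 CPM. Fibroblast markers (8 of 11 higher, 1 lower) summed to 2229 to 2482 CPM, 3184 to 4749 CPM and 3986 to 4440 CPM. Pigment cell markers (6 of 6 lower) summed to 27470 to 29403 CPM, 3343 to 5769 CPM and 5006 to 7058 CPM, and iris smooth muscle markers (4 of 6 lower) to 2971 to 3789 CPM, 337 to 671 CPM and 495 to 736 CPM.

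Beside *Optc*, 2 of 6 markers of nonpigmented ciliary epithelium fell after injury (*Col9a1* and *Wfdc1*), where 17.5% of all genes fell. The list summed to 232 to 303 CPM in Sham, 128 to 196 CPM in injured VEGFR3fl/fl and 149 to 272 CPM in injured VEGFR3iLECko libraries. Without injured VEGFR3fl/fl replicate 1, *Atp6v1c2* fell as well and *Col9a3* rose. In the comparison of the injured groups, 0 of the 6 were called by edgeR, DESeq2 or limma-voom. None had an unadjusted p under 0.05, beside 24.5% of all genes. *Pax6*, a transcription factor of ocular epithelia listed here with the corneal markers, was at 737 to 778 CPM in Sham, 194 to 224 CPM in injured VEGFR3fl/fl and 282 to 339 CPM in injured VEGFR3iLECko libraries, the order of groups seen for *Optc*. Of the ciliary markers only *Col9a1* had that order of group means. *Wfdc1* was lowest in injured VEGFR3iLECko (mean 9.11 CPM) and *Col9a3* in Sham (mean 65.5 CPM). The *Pax6* difference between the injured groups, 0.52 on the log2 scale with adjusted p = 0.0399 by edgeR, was under the 1.5-fold threshold. The part of these cells in the SLRP levels was not tested.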

How the data were processed

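Per library, the authors aligned single-end reads (HISAT2 2.0.4, Bowtie2 2.2.5 and build mm10 per the submitters' processing notes) and deposited estimated counts per gene without normalization. About 10% of values were not whole. The counting program was not given in the sources used here. A combined table with group averages was not used. Counts were rounded, filtered by filterByExpr (edgeR 4.0.16, R 4.3.3), scaled by TMM and fitted over all 9 libraries by the quasi-likelihood method with group as the only term, with Benjamini-Hochberg adjustment over 15010 genes. SEs were derived from the F statistic, and log2 CPM profiles used a prior count of 2. Replicates differed by more than sampling noise. The fit was tested on simulated counts. Alternatives used DESeq2 1.42.0, limma 3.58.1 and other filters, scalings and sets of libraries. The 10 members, pathway genes called and the 2 closest genes per member could be named, and 1 result of that kind is not reported here. Members and lists were chosen with earlier results of these data known. Lengths were from GENCODE M21, and positions and promoters from RefSeq GRCm38.p6.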

Additional observations from a re-analysis of the deposited data

How the results depend on the processing

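Of 594 values of single members over 22 alternatives, 549 kept their direction and their side of the threshold, 13 lost and 20 gained a call, and 12 changed sign. For injured against Sham VEGFR3fl/fl, 5 members were called, and 4 to 8 with each library left out (8 without injured VEGFR3fl/fl replicate 2). With each library left out, 20.8% to 22.0% of all genes were called higher there and 16.2% to 17.6% lower. Between the injured groups 1 was called (*Optc*), and 0 with the replicate block, the Y-linked covariate or the 6 libraries compared alone. Leaving out each library gave 0 to 1 there, beside 0% to 1.14% of all genes higher and 0% to 0.983% lower. For injured VEGFR3iLECko against Sham 3 were called, and 6 with the 6 libraries of that comparison alone. Leaving out each library gave 3 to 6, beside 18.4% to 20.2% of all genes higher and 12.8% to 15.6% lower. The shares of all genes with the 6 libraries alone, the covariate or the block are not given here, so those counts are not read as results about the family. Another setting, chosen after seeing the data, kept only the injured VEGFR3fl/fl library without Y-linked counts. Its lone library was assumed to vary like the other groups. Values that changed sign were those of *Dcn* after injury (-0.074 with limma-voom, -0.61 without injured VEGFR3fl/fl replicate 1 in a range of -0.61 to 0.59 with each library left out, -0.23 with only the library without Y-linked counts kept), of *Ogn* between the injured groups (0.018 without injured VEGFR3fl/fl replicate 1, range -1.11 to 0.018), of *Omd* there (0.012 by library size only, 0.50 and 0.051 without injured VEGFR3fl/fl replicates 1 and 3, 0.16 and 0.40 without injured VEGFR3iLECko replicates 2 and 3, range -1.21 to 0.50) and of *Prelp* in injured VEGFR3iLECko against Sham (0.76 with the Y-linked covariate, 0.070 without Sham replicate 1, 0.27 without injured VEGFR3iLECko replicate 3, range -0.37 to 0.27). The causes were not tested. Same-numbered libraries of different groups deviated with correlations of -0.39 to 0.13. Deviations from means of 3 libraries cannot show whether these libraries shared a batch. The paper mentions 3 sequencing experiments and does not assign libraries to them. With the replicate number as a block, 5, 0 and 3 members were called in the 3 comparisons. With 3 libraries a group, exact tests cannot go below p = 0.1, and p-values cover the spread between pools of 3 irises.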
